A study of Mus musculus with 4 samples.

Results

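Mmp3, Mmp9, Mmp10 and Mmp13 encode secreted matrix metalloproteinases, and their transcripts were followed in CT26 cells across 4 Affymetrix Mouse Gene 2.0 ST arrays. The 4 genes were taken by symbol, each from the single probe set that the platform annotation gives that symbol alone, out of 22180 named genes on the array. CT26 is a mouse colon carcinoma line, grown here in culture in RPMI-1640 medium with fetal bovine serum. The DMSO array held RNA from CT26 cells given the solvent for 24 h, and the Senexin B array from CT26 cells given 5 µM Senexin B, an inhibitor of the Mediator kinases CDK8 and CDK19, for 24 h. The pLKO.1 array held RNA from CT26 cells with that lentiviral vector for short hairpin RNAs, and the shCDK8 array from CT26 cells labelled as carrying a hairpin to CDK8. Neither the hairpin's sequence nor the number of clones in the hairpin line is given in the sources used here, and Senexin B was applied to cells that the labels do not describe as carrying the vector. The question, as the series title puts it, is how CDK8 bears on the metalloproteinase network of colon cancer cells that spread to the liver.

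Each group had 1 array, so there was no spread between replicates, no test and no p-value, and every value is either the log2 level on 1 array or the log2 level of 1 array minus that of another. The 4 genes were chosen by these same Senexin B and shCDK8 differences, so their levels and differences are a description. The difference between the control arrays, pLKO.1 minus DMSO, is given beside each as a yardstick. These controls are not replicates, since 1 is a vector line and the other solvent-treated cells. Each also shares an array with 1 of the comparisons. A ratio to the control difference is therefore not a measure of signal over noise. In RNA from whole cultures, fewer cells expressing a gene and less RNA per cell cannot be told apart.

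Matrix metalloproteinases are zinc-dependent enzymes that cut the proteins of the extracellular matrix. They are secreted as inactive proenzymes, are switched on by removal of their propeptide, and are blocked by the tissue inhibitors of metalloproteinases (TIMPs). Mmp3 and Mmp10 encode the stromelysins, which cut proteoglycans, fibronectin and laminin and can activate other proenzymes. Mmp13 encodes collagenase-3, which cleaves fibrillar collagen and is a major interstitial collagenase of rodents. Mmp9 encodes gelatinase B, which cuts denatured collagen and the type IV collagen of basement membranes. Transcription of these genes is known to respond to growth factors and inflammatory cytokines through AP-1, a dimer of Fos and Jun proteins. CDK8 and CDK19 are kinases of Mediator, the complex that links transcription factors to RNA polymerase II.

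Mmp13, Mmp3 and Mmp10 lie in a cluster of 10 metalloproteinase genes on chromosome 9, while Mmp9 lies on chromosome 2. Promoter sequence from RefSeq (GRCm38.p6) was matched for 3 of the 4 genes, Mmp3, Mmp10 and Mmp13. The 250 bases before each annotated start are shown because the genes were lower together and because all 3 windows hold the same pair of motifs. Capitals mark, from left to right, an ACCACA RUNX core (Mmp13 alone), the AP-1 heptamer TGAGTCA or its reverse complement TGACTCA, and the TATAAA box.
Mmp3 (chr9:7445572-7445821, plus strand): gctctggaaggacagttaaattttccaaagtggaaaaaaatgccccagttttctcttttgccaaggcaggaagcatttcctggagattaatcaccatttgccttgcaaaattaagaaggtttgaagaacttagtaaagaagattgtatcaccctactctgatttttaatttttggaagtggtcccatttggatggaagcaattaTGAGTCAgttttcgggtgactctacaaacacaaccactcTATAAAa
Mmp10 (chr9:7502092-7502341, plus strand): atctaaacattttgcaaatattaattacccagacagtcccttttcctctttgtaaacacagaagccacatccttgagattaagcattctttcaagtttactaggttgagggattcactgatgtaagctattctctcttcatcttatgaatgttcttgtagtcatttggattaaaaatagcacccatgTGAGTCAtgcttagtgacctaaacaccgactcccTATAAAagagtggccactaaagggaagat
Mmp13 (chr9:7272264-7272513, plus strand): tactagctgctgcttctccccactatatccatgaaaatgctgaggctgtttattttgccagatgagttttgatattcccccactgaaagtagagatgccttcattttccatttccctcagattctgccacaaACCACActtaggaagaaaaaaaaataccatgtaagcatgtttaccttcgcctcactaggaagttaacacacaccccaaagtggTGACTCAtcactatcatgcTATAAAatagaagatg

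Counted back from the annotated start, the AP-1 heptamer began 46 bases upstream in Mmp3, 63 in Mmp10 and 35 in Mmp13. The TATA box began at -7 in Mmp3, -29 in Mmp10 and -16 in Mmp13. These distances are to the annotated start, which was not measured here as a start of transcription. The gap between the heptamer and the TATA box was 32 bases in Mmp3, 27 in Mmp10 and 12 in Mmp13. Each promoter held the heptamer 1 time, on the sense strand in Mmp3 and Mmp10 and on the opposite strand in Mmp13. Mmp13 alone of the 3 held the RUNX core, 118 bases upstream. RUNX proteins are known to act on the Mmp13 promoter in bone and cartilage cells.

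The heptamer was found on either strand in 4.46% of all 32851 promoter windows, within the 250 bases before the start. In the last 100 bases it was in 1.88% of windows, and TATAAA on the sense strand was in 3.80%. Both together stood in the last 100 bases of 38 windows, or 0.116%. The shorter motifs were common, with ACCACA or its complement TGTGGT in 14.0% of windows and the ETS core GGAA or TTCC in 93.4%. A match is a stretch of letters and not a measured binding site.

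**Figure D1:**
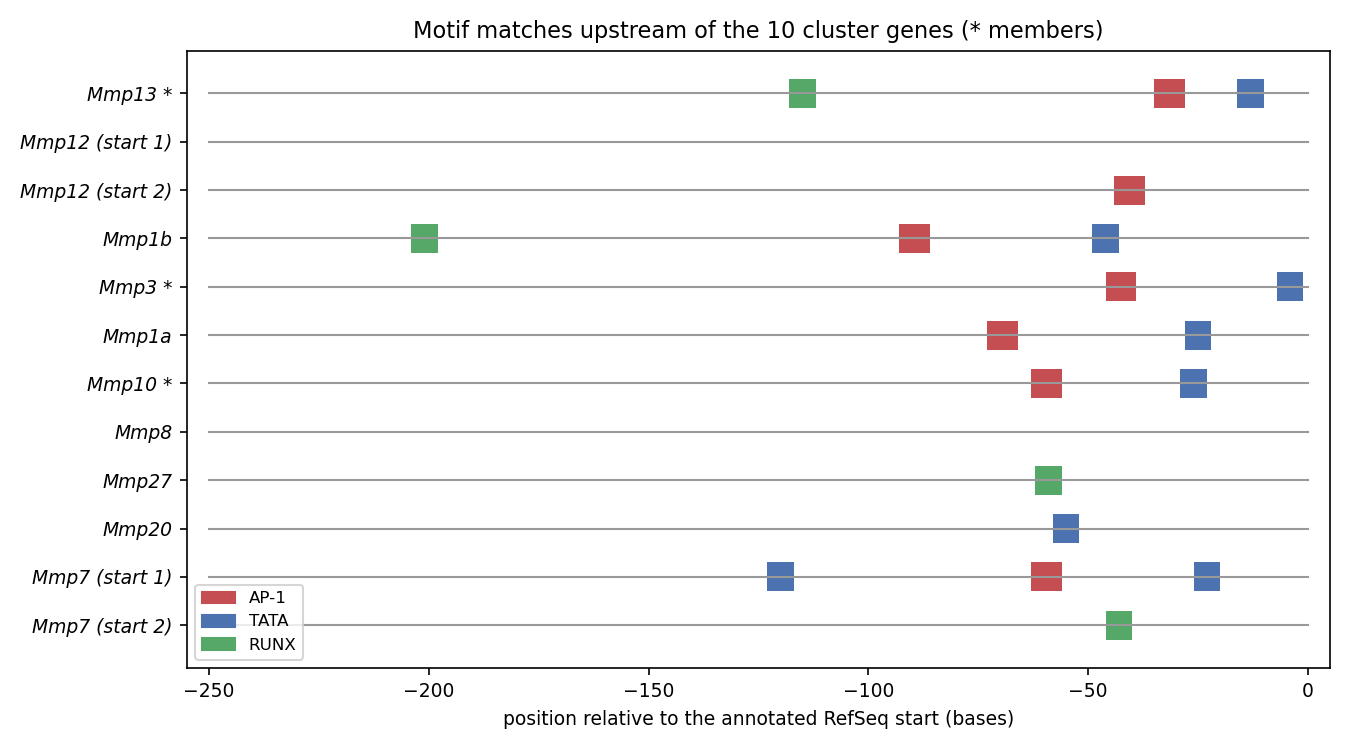
Motif matches in the 250 bases before the annotated RefSeq starts of the 10 cluster genes, with 2 starts each for Mmp12 and Mmp7. The x axis is the position in bases relative to the start, and coloured blocks are AP-1 heptamers, TATA boxes and RUNX cores. The AP-1 block stands upstream of a TATA block in Mmp13, Mmp3 and Mmp10, and also in Mmp1b, Mmp1a and Mmp7.

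The same pair of motifs stood in other genes of the cluster. Of the 10 cluster genes 7 held the AP-1 heptamer in at least 1 window, namely Mmp13, Mmp12, Mmp1b, Mmp3, Mmp1a, Mmp10 and Mmp7, and Mmp8, Mmp27 and Mmp20 did not. Mmp12, Mmp1b, Mmp1a and Mmp7 were under the expression limit on all 4 arrays. That limit was a log2 value of 5.98, which at least 1 of a gene's 4 values had to reach and which is the 40th percentile over genes and arrays. It left 14272 expressed genes, among them all 4 genes described here.

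Mmp13 had the widest range of the 4 genes. Its level was 8.93 in DMSO, 7.41 in Senexin B, 9.41 in pLKO.1 and 6.23 in shCDK8. Both control arrays were above both others, and shCDK8 lay only 0.26 above the expression limit, where array signals are compressed. With Senexin B Mmp13 differed from DMSO by -1.52, or 2.87-fold lower. In shCDK8 it differed from pLKO.1 by -3.17, or 9.02-fold lower, which was the lowest difference of all 14272 expressed genes. The control arrays differed by 0.47, with pLKO.1 the higher.

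Mmp3, the first stromelysin gene, had the highest pLKO.1 value relative to DMSO of the 4. Its level was 10.53 in DMSO, 9.79 in Senexin B, 11.23 in pLKO.1 and 8.64 in shCDK8. The order of the arrays was the same as for Mmp13, from pLKO.1 through DMSO and Senexin B to shCDK8. Senexin B minus DMSO was -0.74, or 1.67-fold lower. That difference was 1.05 times the size of the one between the control arrays, which was 0.70. The control difference of Mmp3 was larger in absolute size than that of 99.5% of expressed genes. In shCDK8 Mmp3 was at -2.59 against pLKO.1, or 6.04-fold lower, which was 3.69 times the control difference and the second lowest of all expressed genes.

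Mmp10, the other stromelysin gene, was the one in which the Senexin B array was the lowest. Its level was 9.10 in DMSO, 6.94 in Senexin B, 8.88 in pLKO.1 and 7.70 in shCDK8. The controls lay 0.22 apart, with DMSO the higher. The Senexin B value lay 0.96 above the expression limit. Senexin B minus DMSO was -2.17, or 4.49-fold lower, which was 9.69 times the control difference, and it ranked 3 from the lowest. shCDK8 minus pLKO.1 was -1.18, or 2.27-fold lower, which was 5.29 times the control difference and ranked 22 from the lowest.

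Mmp9, the gelatinase B gene on another chromosome, had the narrowest range, 1.27 from the highest to the lowest array. Its level was 8.46 in DMSO, 7.88 in Senexin B, 8.25 in pLKO.1 and 7.19 in shCDK8. Both controls were again above both others, with DMSO 0.21 above pLKO.1. Senexin B minus DMSO was -0.59, just past the 1.5-fold limit, and ranked 227 from the lowest. Against the pLKO.1 array the Senexin B value was 1.30-fold lower. shCDK8 minus pLKO.1 was -1.06, or 2.09-fold lower, ranked 40 from the lowest.

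**Figure D2:**
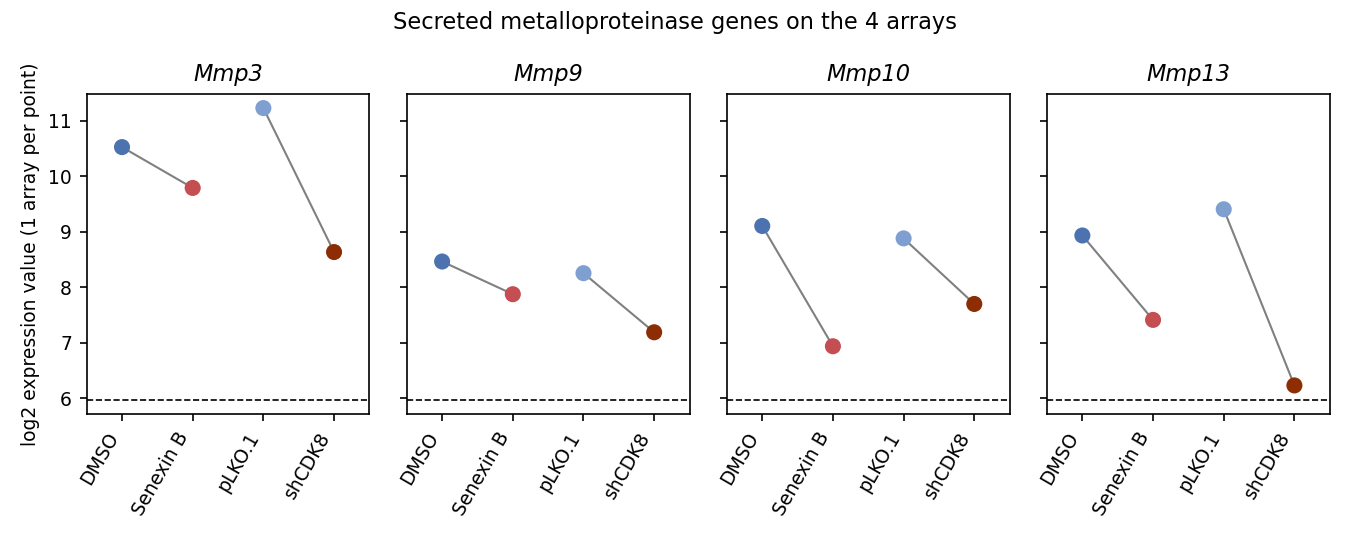
Log2 expression values (y axis) of Mmp3, Mmp9, Mmp10 and Mmp13 on the DMSO, Senexin B, pLKO.1 and shCDK8 arrays, 1 array per point, with grey lines joining each pair compared and a dashed line at the expression limit of 5.98. In each gene both control points stand above both other points, and shCDK8 is the lowest point in all but Mmp10.

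The control arrays therefore lay above the Senexin B and shCDK8 arrays in all 4 genes, but the controls themselves differed in opposite ways. pLKO.1 was above DMSO in Mmp3 and Mmp13 and below it in Mmp9 and Mmp10. Taken against the other control array, Senexin B was at -1.44 for Mmp3, -0.38 for Mmp9, -1.94 for Mmp10 and -1.99 for Mmp13. shCDK8 against DMSO was at -1.89 for Mmp3, -1.27 for Mmp9, -1.40 for Mmp10 and -2.70 for Mmp13. The sign was the same with either control. With pLKO.1 as the reference 3 of the 4 were at least 2-fold lower in Senexin B, beside 0.301% of expressed genes, and the same 3 at least 1.5-fold, beside 1.86%, Mmp9 being the exception. With DMSO as the reference all 4 were at least 2-fold lower in shCDK8, beside 0.329%.

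With Senexin B 2 of the 4 genes were at least 2-fold lower than DMSO, beside 0.252% of expressed genes, and all 4 at least 1.5-fold lower, beside 1.65%. Mmp9 was under 1.5-fold after a second quantile normalization (-0.53) or a lowess correction (-0.52). In shCDK8 all 4 were at least 2-fold lower than pLKO.1, beside 0.322% of expressed genes at least 2-fold and 1.85% at least 1.5-fold lower. Between the controls 0 of the 4 were 2-fold apart, beside 0.0841% of expressed genes higher and 0.014% lower in pLKO.1, and Mmp3 was at least 1.5-fold higher in pLKO.1, beside 0.603% of expressed genes. The median over the 4 genes was -1.13 for Senexin B and -1.89 for shCDK8, against -0.028 and 0.0038 over all expressed genes. The genes were chosen for these differences, so nothing is read from the shares.

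The size of the difference was not ordered alike in the 2 comparisons. Mmp10 was furthest from its control with Senexin B, followed by Mmp13, Mmp3 and Mmp9. In shCDK8 Mmp13 was furthest, followed by Mmp3, Mmp10 and Mmp9. The shCDK8 difference was lower than the Senexin B difference by 1.86 for Mmp3, 1.65 for Mmp13 and 0.48 for Mmp9 on the log2 scale, while for Mmp10 it was higher by 0.99. Whether the hairpin and the inhibitor differ in their effect was not tested, since each rests on 1 pair of arrays. Cdk8 itself, the gene the hairpin is named for, was at -1.72 in shCDK8 and at -0.11 with Senexin B, and Cdk19 was at 0.19 and 0.16.

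**Figure D3:**
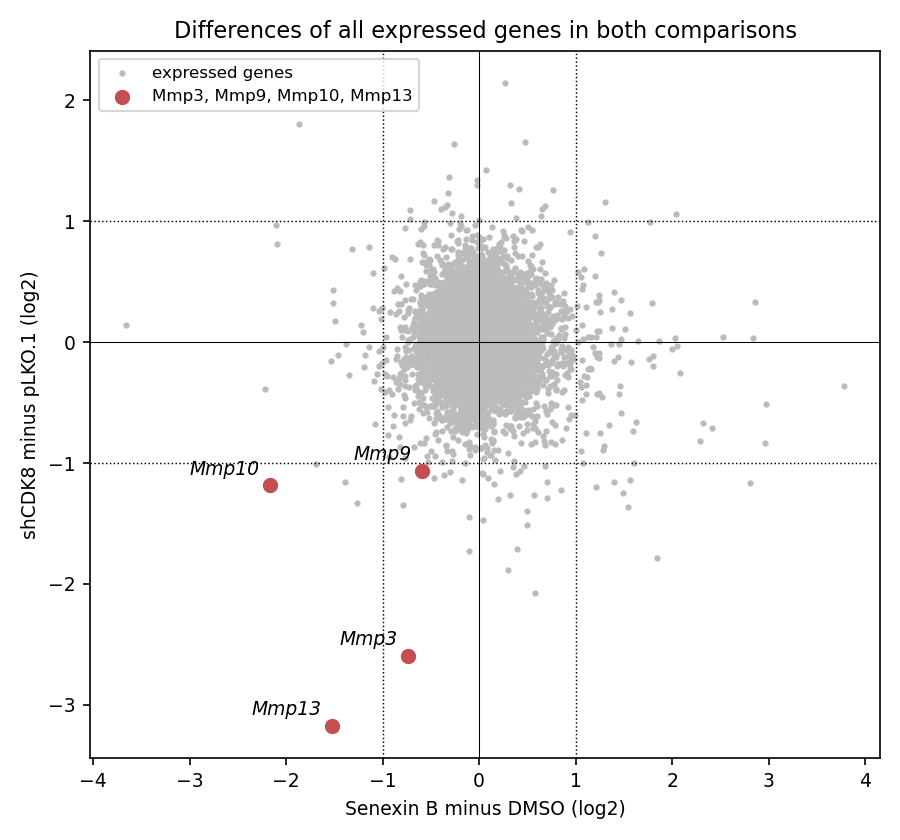
Senexin B minus DMSO (x axis) against shCDK8 minus pLKO.1 (y axis), both in log2 units, for the 14272 expressed genes in grey and Mmp3, Mmp9, Mmp10 and Mmp13 in red, with dotted lines at 2-fold. The 4 genes lie at the lower left, Mmp13 at -1.52 and -3.17 and Mmp10 at -2.17 and -1.18.

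Because the comparisons share no array, genes lower in both could be counted. At least 1.5-fold lower in both were 23 expressed genes, or 0.161%, and the 4 metalloproteinase genes were among them, Mmp9 with the same loss under either rescaling. The other genes included Timp1, an inhibitor of these enzymes, at -0.83 with Senexin B and -0.78 in shCDK8. Tnc, the matrix protein tenascin-C, was at -0.77 and -0.67, with its Senexin B value of 5.90 under the expression limit. Apln, the peptide hormone apelin, was at -1.69 and -1.01, and the kainate receptor partner Neto2 at -1.27 and -1.33. The Neto2 value in shCDK8, 5.70, was under the expression limit, and its pLKO.1 minus DMSO difference was -0.61. Hmox1, heme oxygenase 1, named after its values were seen, was at -1.08 and -0.68. With the other control array required as well, 15 genes stayed at least 1.5-fold lower, or 0.105%, among them Mmp3, Mmp10 and Mmp13 but not Mmp9.

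The neighbours of the 4 genes gave a view of their chromosomal surroundings. Of the 10 cluster genes only Mmp13, Mmp3 and Mmp10 were expressed, and the genes that stand between them in the RefSeq order, Mmp12, Mmp1b and Mmp1a, had no value above 4.48. The 5 protein-coding genes on each side of the cluster were measured, and 8 of these 10 were expressed. With Senexin B those 8 lay between -0.18 (Casp12, an inflammatory caspase gene) and 0.29 (Birc3, an inhibitor of apoptosis). In shCDK8 they lay between -0.41 (Cfap300, a cilia gene) and 0.12 (Birc2). Yap1, the effector of the Hippo pathway, was at -0.02 and 0.10. None of the flanking genes was 1.5-fold apart in either comparison. Over all expressed genes 1.65% were that much lower and 2.35% higher with Senexin B, and 1.85% and 1.67% in shCDK8.

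Around Mmp9 the picture differed at 1 gene. Of 10 flanking protein-coding genes 9 were measured, and all 9 were expressed. Pltp, the phospholipid transfer protein gene, was higher in both comparisons, at 0.68 with Senexin B and 1.13 in shCDK8, opposite to Mmp9. Pcif1, an RNA cap methyltransferase gene, was at 0.47 and 0.05. The remaining 7 lay between -0.21 (Ncoa5) and 0.24 (Ctsa, a lysosomal carboxypeptidase gene) in both comparisons.

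**Figure D4:**
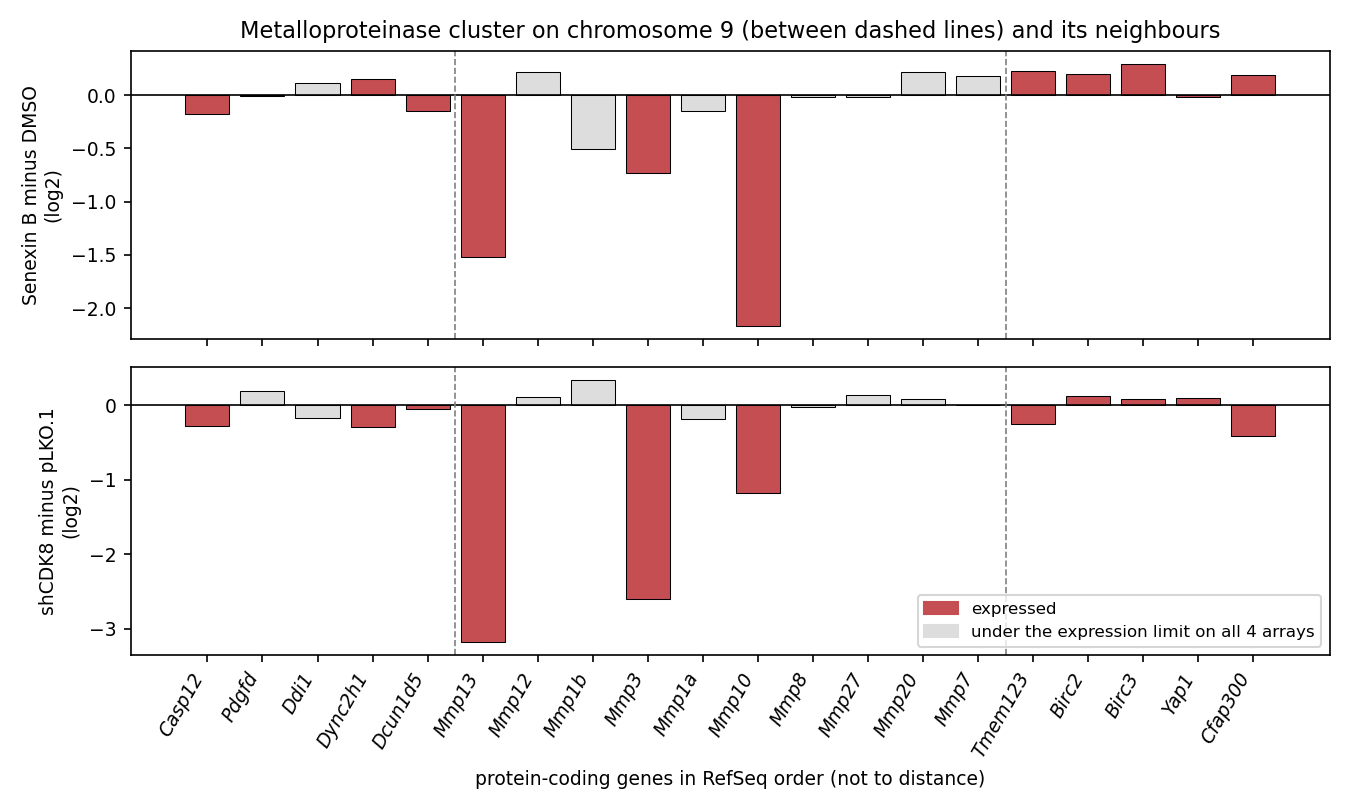
Differences (y axes, log2) of the 10 cluster genes and of 5 protein-coding genes on each side, in RefSeq order along chromosome 9, for Senexin B minus DMSO above and shCDK8 minus pLKO.1 below. Red bars are expressed genes and grey bars genes under the expression limit on all 4 arrays. The red bars of Mmp13, Mmp3 and Mmp10 reach from -0.74 to -3.17, while the red bars outside the dashed lines lie between -0.41 and 0.29.

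Other genes with the promoter pair of AP-1 heptamer and TATA box were read out too. Of 34 such genes on the array 13 were expressed, 3 of them Mmp3, Mmp10 and Mmp13. Among the other 10 the median difference was 0.018 with Senexin B and -0.048 in shCDK8. Sele, the leukocyte adhesion receptor E-selectin, alone was 2-fold apart, with -2.22 for Senexin B and -0.39 for shCDK8. Over all expressed genes 0.252% were 2-fold lower and 0.687% higher with Senexin B, and 0.322% and 0.196% in shCDK8. The remaining genes of the 10 lay between -0.25 and 0.47 in both comparisons. They included, named after their values were seen, Anxa2, which binds plasminogen at the cell surface (-0.23 and -0.04), and Ecm1, a secreted matrix protein (0.04 and -0.06). The list was drawn up after the promoters of the 3 metalloproteinase genes had been seen.

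The wider set of expressed genes with the heptamer anywhere in the 250 bases numbered 469. With Senexin B 4 of these, or 0.853%, were at least 2-fold lower, beside 0.260% of expressed genes with a promoter window. At least 2-fold higher were 6 of the 469, beside 65 of the 11151 expressed genes with a promoter window, and the median was -0.0054. In shCDK8 4, or 0.853%, were lower, beside 0.305% of expressed genes with a window. There 1 of the 469 was higher, beside 22 of the 11151 with a window, and the median was -0.010. Over all 11151 expressed genes with a promoter window the medians were -0.035 and 0.0082. Mmp10 and Mmp13 account for 2 of the 4 lower genes with Senexin B, and Mmp3, Mmp10 and Mmp13 for 3 of the 4 in shCDK8. Those metalloproteinase genes were chosen for these differences, so nothing is read from the shares of lower genes.

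Among the factors known to act on these promoters, transcripts of AP-1 proteins were read first. Of 11 listed AP-1 genes 10 were measured, Fosl1 being the exception, and all 10 were expressed. None was 1.5-fold apart in either comparison. Beside this, 1.65% of expressed genes were that much lower and 2.35% higher with Senexin B, and 1.85% and 1.67% in shCDK8. With shares this small, 0 of 10 is not read as particular to the AP-1 genes. The AP-1 median was -0.12 with Senexin B, with 8 of 10 below 0 beside 55.1% of all expressed genes. In shCDK8 it was 0.16, with 3 of 10 below 0 beside 49.1%. Jund was at -0.34 and -0.23, and Batf at -0.32 and 0.23. Fosb was at -0.25 and 0.22, and Atf3 at -0.18 and 0.22. A transcript level does not give the amount or phosphorylation of the protein, on which AP-1 activity depends.

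ETS factors, which bind beside AP-1 on many metalloproteinase promoters, went different ways. Of 10 expressed members Ehf, an epithelial ETS factor, was 1.64 higher with Senexin B, from 5.72 in DMSO, under the expression limit, to 7.36. Ets2 was at 0.75 with Senexin B and -0.25 in shCDK8. Elk1, which carries growth factor signals to the serum response element, was at 0.09 and -0.65. The list medians were 0.0024 and -0.092.

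Of 4 listed RUNX genes Runx1, Runx3 and the common partner Cbfb were measured and expressed. Runx2 was not among the genes measured, so its level is not known here. With Senexin B Runx3 was at -0.41, Runx1 at -0.34 and Cbfb at -0.15, and in shCDK8 they were at 0.13, -0.0049 and -0.17. Among 9 expressed NF-kappaB genes Rel, the c-Rel subunit, was the only one 1.5-fold apart, at -0.85 with Senexin B and -0.11 in shCDK8. Over all expressed genes 1.65% were that much lower and 2.35% higher with Senexin B, and 1.85% and 1.67% in shCDK8. Cebpb, which encodes a stress- and cytokine-responsive factor, was at 0.81 and -0.18. Axin2, a target and brake of beta-catenin signalling, was at 0.55 and -0.23.

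Ligands that are known to induce metalloproteinases, and their receptors, were read next. Of 18 measured ligand genes 9 were expressed. Il1a, Il1b, Tnf and Il6, the main inflammatory inducers, were under the expression limit on all 4 arrays. Tgfa, a ligand of the EGF receptor, was at 8.29 in DMSO, 7.23 in Senexin B, 7.81 in pLKO.1 and 7.55 in shCDK8, and so at -1.06 and -0.26. Hbegf, another such ligand, was at -0.97 and -0.27, while Ereg, one more of them, was at 0.44 and 0.12. The Senexin B array was the lowest in Tgfa and Hbegf, as it was in Mmp10. Egfr, the EGF receptor gene itself, was under the expression limit on all 4 arrays, with no value above 5.92. A link of these ligands to Mmp10 was not tested.

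Of 14 expressed receptor genes 4 were at least 1.5-fold higher with Senexin B, beside 2.35% of expressed genes, and 0 were that much lower. In shCDK8 1 was higher, beside 1.67%, and 2 were lower, beside 1.85%. Osmr, the oncostatin M receptor, was at 0.95 with Senexin B and -0.60 in shCDK8. Fgfr1 was at 0.88 and -0.13, and the cytokine co-receptor Il6st at 0.64 and -0.01. In shCDK8 Il6ra, the interleukin-6 receptor gene, was at -0.66 and Tgfbr1, a TGF-beta receptor gene, at 0.60.

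Genes of the MAP kinase route, which carries these signals to AP-1, had a median of -0.21 with Senexin B, with 12 of 14 below 0 beside 55.1% of expressed genes, and of 0.0065 in shCDK8, with 7 of 14 below 0 beside 49.1%. Map2k6, a kinase of the p38 branch, was at -0.77 and -0.28. The feedback genes Dusp5 and Spry2, which damp ERK signalling, were lower with Senexin B, at -0.99 and -0.59, and higher in shCDK8, at 0.62 and 0.81. Dusp1, a phosphatase for stress-activated MAP kinases, was higher in both, at 0.84 and 0.33.

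Of the other metalloproteinase genes 18 were measured and 8 expressed. None of the 8 was 2-fold lower in either comparison, beside 0.252% of expressed genes with Senexin B and 0.322% in shCDK8. The median of the 8 was 0.15 with Senexin B and -0.074 in shCDK8. Mmp2, the gelatinase A gene, was at 5.97 in DMSO, 8.05 in Senexin B, 6.33 in pLKO.1 and 6.08 in shCDK8, and so stood apart on the Senexin B array alone. Mmp14, a membrane-bound metalloproteinase that activates proMmp2, was at 0.64 and 0.48, beside 0.49 between the controls. Mmp19 was at -0.15 and -0.61, and its pLKO.1 array was 0.49 above DMSO. Of 5 expressed inhibitors Timp3 was at 1.77 and 0.99, Reck at 0.25 and 0.43 and Timp2 at 0.16 and -0.07.

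Enzymes that switch on proenzymes of this family, and partners that hold or clear the secreted enzymes, were listed as well. Of 9 expressed activating genes none was 2-fold apart. Over all expressed genes 0.252% were 2-fold lower and 0.687% higher with Senexin B, and 0.322% and 0.196% in shCDK8. Plau, the urokinase gene, was at -0.21 with Senexin B and 0.67 in shCDK8, Plat, the tissue plasminogen activator gene, at -0.43 and 0.40, and the urokinase receptor gene Plaur at -0.52 and 0.12. Furin, which cleaves the propeptides of several proenzymes, was at -0.24 and -0.12. Lcn2, whose human product binds and stabilizes the human MMP9 protein, was at 1.21 with Senexin B and 0.04 in shCDK8, opposite to Mmp9 in the first. The thrombospondins Thbs1 and Thbs2 were at 0.74 and 0.75 with Senexin B and at 0.29 and 0.07 in shCDK8. Lrp1, the receptor that takes up these enzymes, was at -0.09 and -0.29.

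Substrates of the 4 enzymes were also read. Of 20 expressed substrate genes the small proteoglycans Bgn and Dcn, which metalloproteinases can cut, were at 2.41 and 2.29 with Senexin B and at -0.71 and -0.82 in shCDK8. Between the controls Dcn was 0.58 higher in pLKO.1 and Bgn 0.18, so that against DMSO shCDK8 was at -0.24 for Dcn and -0.53 for Bgn. Col3a1, a fibrillar collagen chain and substrate of collagenase-3, was at 0.57 and -1.27. Tnc, named above, was the single substrate gene at least 1.5-fold lower in both, with its Senexin B value under the expression limit. The medians were 0.19 and -0.026.

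**Figure D5:**
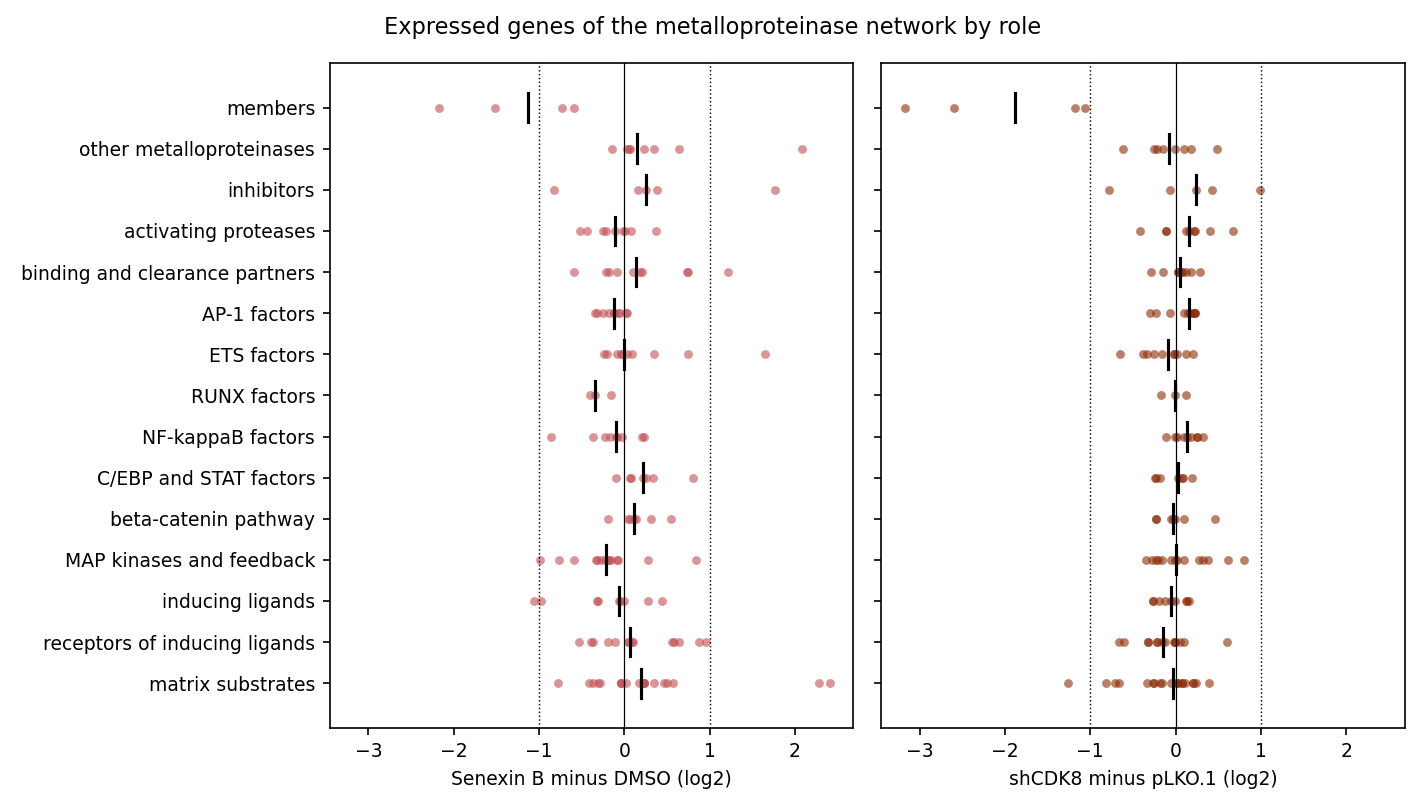
Differences (x axes, log2) of the expressed genes of each list, with Senexin B minus DMSO on the left and shCDK8 minus pLKO.1 on the right, 1 point per gene, black bars at list medians and dotted lines at 2-fold. The medians of Mmp3, Mmp9, Mmp10 and Mmp13 are -1.13 and -1.89, and the AP-1 genes have medians of -0.12 and 0.16.

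The genes most like each of the 4 were found among 372 expressed genes whose range over the arrays was at least 1. Likeness was the Euclidean distance between 2 profiles of 4 values, each centred on its own mean, so a small value means near-equal differences between arrays. With only 4 arrays, among them the pairs that chose these genes, a small distance is a description. Mmp3 and Mmp13 were nearest to each other, at a distance of 0.70. After Mmp13, Mmp3 was nearest to Cdk8 (0.90), Lrrtm2 (0.92), a synaptic adhesion gene, Oasl1 (0.97), an interferon-induced gene, and the potassium channel subunit gene Kcnab2 (1.03). After Mmp3, Mmp13 was nearest to Neto2 (1.35), Lrrtm2 (1.44), Cdk8 (1.47) and Polr2l (1.505), a subunit of RNA polymerases.

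Mmp10 and Mmp9 had their nearest genes outside the family. For Mmp10 these were Apln (0.44), Polr2l (0.57), the teneurin gene Tenm3 (0.88), Sele (0.93) and Baalc (0.94), and Mmp9 was the nearest of the other 3 metalloproteinases, at 1.33. For Mmp9 they were C2cd2 (0.10), the zinc finger gene Zfp943 (0.17), the synaptotagmin gene Syt4 (0.19), Zfp518b (0.22) and Csgalnact1 (0.23), an enzyme that starts chondroitin sulfate chains. Some of these values were under the expression limit, namely Zfp943 (5.52) and Syt4 (5.42) in shCDK8, Baalc (5.73) with Senexin B, and Polr2l as given above. C2cd2 stood at 8.45 in DMSO, 7.98 in Senexin B, 8.29 in pLKO.1 and 7.17 in shCDK8, which follows Mmp9 in order and spacing. Ranked by Pearson's r over the 4 arrays instead, 3 of 5 nearest genes were the same for Mmp3, 4 of 5 for Mmp9, and 2 of 5 for Mmp10 and for Mmp13.

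Markers of other cells were checked, since macrophages and neutrophils make several of these enzymes. Of 7 macrophage markers Cd68 and Cd14 were expressed, while Adgre1, Csf1r, Itgam, Lyz2 and Ptprc were under the expression limit on all 4 arrays. Cd14 was at 0.79 with Senexin B and -0.39 in shCDK8. Of 7 neutrophil markers S100a8, S100a9 and Ly6g were under the limit on all 4 arrays, and the other 4 had no value above 6.30. Summed log2 levels of the macrophage list lay between 42.5 and 43.9 and of the neutrophil list between 38.6 and 40.6 over the 4 arrays. Among 7 epithelial markers Epcam and Krt19 were under the limit on every array, Krt8 lay between 7.12 and 7.25, and Krt20, an intestinal keratin gene, was at -1.44 in shCDK8. Of 7 fibroblast markers 5 were expressed. Dcn and Pdgfra were at least 2-fold higher with Senexin B (2.29 and 1.24), beside 0.687% of expressed genes. In shCDK8 Dcn was at -0.82 and Pdgfra at 0.39. Col1a1 was at 0.23 with Senexin B and -0.16 in shCDK8, and Thy1 at 0.21 and 0.30. Fap was at -0.46 and -0.94, but of its 4 values only that of pLKO.1, 6.41, reached the limit. pLKO.1 was 0.52 above DMSO for Fap, so that against DMSO shCDK8 was at -0.42. The endothelial genes had no value above 6.16. None of 9 reference genes was 1.5-fold apart in either comparison. Over all expressed genes 1.65% were that much lower and 2.35% higher with Senexin B, and 1.85% and 1.67% in shCDK8. The part of Cd14, Dcn, Pdgfra, Fap and Krt20 in the metalloproteinase differences was not tested.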

How the data were processed

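The authors deposited log2 values for 41345 probe sets on each of 4 arrays. RMA in the submitters' processing notes stands beside Affymetrix Expression Console, with no version or setting given. This method corrects background, gives arrays a common distribution and combines the probes of a set, which removes shifts common to all genes and compresses differences near the background. Array medians lay between 5.99 and 6.04.

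Of the probe sets 23521 had 1 gene symbol in the platform annotation, and per gene the 1 with the highest mean was kept, giving 22180 genes. A gene counted as expressed with at least 1 value at the 40th percentile or above. Differences, 2-fold and 1.5-fold counts, list medians, distances and motif matches were computed in Python 3.11.15 with pandas 2.3.3, and fold counting was tested on simulated data. Precision is limited by the number of arrays, 1 per group, and no test was possible. The 4 genes and the 22 gene lists were chosen with earlier results of these data known. The genes named are the 4, up to 4 expressed genes per list with the largest absolute difference in either comparison, those 2-fold apart, metalloproteinases, inhibitors, the kinase module, the 5 nearest genes in profile and the 5 flanking genes per side. Hmox1, Anxa2, Ecm1 and the list genes named as under the expression limit fall outside this rule and were chosen after their values were seen. Runx2 and Fosl1 are named only as not measured. Protein sequences and genes absent from the annotation table were not analysed here. Alternatives were a second quantile normalization, a lowess correction (span 0.3), the mean of probe sets, a floor at the expression limit, other filters and thresholds, and the other control array. A value was called moved at 0.1 log2 or more, and a count beyond a factor of 1.5.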

Additional observations from a re-analysis of the deposited data

How the results depend on the processing

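The 8 differences of Mmp3, Mmp9, Mmp10 and Mmp13 (4 with Senexin B, 4 in shCDK8) were negative under every alternative run. Repeated quantile normalization moved them by at most 0.063 and removal of the lowess trend by at most 0.087 on the log2 scale. After these, Mmp9 with Senexin B was at -0.53 and -0.52, under 1.5-fold. A floor at the expression limit and the mean of probe sets changed none of the 8, since no value lay under the limit and each gene had 1 probe set. Only the other control array moved all 8, by 0.21 to 0.70. Senexin B minus pLKO.1 was -1.44 for Mmp3, -0.38 for Mmp9, -1.94 for Mmp10 and -1.99 for Mmp13. shCDK8 minus DMSO was -1.89 for Mmp3, -1.27 for Mmp9, -1.40 for Mmp10 and -2.70 for Mmp13. These shifts equal the difference between the control arrays by construction.

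The number of expressed genes at least 2-fold lower, 36 with Senexin B and 46 in shCDK8, lay between 31 and 43 and between 41 and 53 under other filters, scalings and the other control. At 1.5-fold the numbers were 235 and 264, and at 3-fold 7 and 7. No paired analysis was possible because each group has 1 array. Values near the expression limit, as that of Mmp13 in shCDK8, may understate a difference.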
